A study of Mus musculus with 6 samples.

Results

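The genes described here are those that cut, join and remodel RNA in the nucleus: the DEAD-box and DEAH-box RNA helicases (Ddx and Dhx genes), the SR proteins (Srsf and Srrm), the SF3A and SF3B complexes, the heterogeneous nuclear ribonucleoproteins or hnRNPs (Hnrnp), the RBM, PRPF, LSM, U2AF, LUC7-like, CPSF, CELF and MBNL families and the proteins of the small nuclear ribonucleoproteins or snRNPs (Snrp and Snrnp). They were chosen by the start of the gene symbol, leaving out Ddx58. The rule matched 63 of the 4233 genes listed in the deposited table. GENCODE M21 annotates 206 protein-coding genes with such names, and the other genes, among them all CPSF and MBNL genes, were not analysed here.

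Lymphatic endothelial cells, which line the vessels that drain fluid and immune cells from the membranes around the brain, were sorted from the meninges of male C57BL/6J mice aged 6 months as single DAPI- CD45- CD31+ PDPN+ events. There were 3 libraries from hemizygous 5xFAD mice and 3 from non-transgenic littermates (WT), and each library pooled cells of 10 mice. The 5xFAD transgenes are driven by the Thy1 promoter, which is active mainly in neurons, so the sorted cells come from an amyloid-bearing animal and are not the cells the promoter was chosen for. The comparison asks how gene expression in these cells differs between the genotypes.

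Splicing removes introns in steps. The U1 snRNP binds the start of an intron, the U2 snRNP binds the branch site near its end, and the U4/U6.U5 tri-snRNP then joins and is rearranged by helicases into the catalytic spliceosome. SR proteins mostly favour the use of the exons they bind, while many hnRNPs oppose it, and the balance between them shapes which exons a cell keeps. Many SR and hnRNP genes also control their own level through exons that send the mRNA to decay, which a gene-level count cannot show.

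Recovered reads over the listed genes ran from 7960827 to 13255050 per library, which covers the listed genes alone and so does not give sequencing depth. All 10 lymphatic endothelial markers checked were listed, with a summed level of 276170 to 317150 normalised counts in WT and 254270 to 399380 in 5xFAD, and none passed the test. Of the other cell types, 5 of 8 blood endothelial markers (22066 to 42791 in WT, 28745 to 41185 in 5xFAD), 4 of 6 fibroblast markers (21810 to 40158 and 23234 to 26444) and 3 of 6 mural markers (1939.5 to 6478 and 2419.9 to 4410.0) were listed. Among leukocyte markers 1 of 8 was listed, Mrc1 (8243 to 11829 and 8105 to 11310.0), and of erythroid and platelet markers 0 of 4. Which cells the reads of these other markers came from, the sorted cell type included, was not tested. Listed genes without reads numbered 25 to 42 in the WT and 86 to 147 in the 5xFAD libraries (exact permutation p = 0.1, the smallest that 3 against 3 allows). The nuclear RNA Malat1 made up 3.83 to 4.58% of recovered reads in WT and 4.62 to 5.96% in 5xFAD (exact permutation p = 0.1). The part of these differences in the results below was not tested.

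Of the 63 genes, 2 were lower in 5xFAD than in WT and 0 were higher (limma, Benjamini-Hochberg adjusted p under 0.05 over all 4152 genes tested). Snrnp40, a WD40-repeat protein of the U5 snRNP, fell 17.5-fold in mean level, and Srsf4, an SR protein, fell 9.07-fold. Over all tested genes 4.48% were lower and 1.88% higher (6.36% either way), so the 2 lower genes, 3.17% of the 63, are near the background and are not a result about the family as a whole. At an unadjusted p under 0.05, 5 of the 63 were lower and 0 higher, against 9.61% and 6.7% of all tested genes. On recovered whole reads edgeR called 1 of the 63 lower (Snrnp40) and 0 higher, against 4.12% and 1.93% of all tested genes, and DESeq2 called 2 lower and 0 higher, against 6.36% and 3.93%. By voom, 2 were lower and 0 higher, against 202 and 86 of all 4152 tested genes. All 63 genes had reads in every library and passed the filter on low values, so none was called through a group without reads. In a bulk sample fewer cells with an mRNA and less mRNA per cell cannot be told apart.

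Snrnp40 was at 110.1, 123 and 405 normalised counts in the WT libraries and at 14.1, 15.8 and 6.63 in the 5xFAD libraries. All 5xFAD values lay below the lowest WT value, and the 3 WT values were spread over a wider range than the 3 5xFAD values. The means were 213 ± 167 and 12.2 ± 4.88 (SD, n = 3 each), with a log2 fold change of -3.83 (SE 1.07, 95% interval -5.93 to -1.73; limma adjusted p = 0.00799). Behind the 5xFAD values stood 17, 13 and 5 reads, and behind the WT values 134, 132 and 458. The gene lies on chromosome 4 (130360132 to 130390026, GRCm38), and no exon of it overlaps an exon of another annotated gene. Without WT 3, the library with the highest value, the log2 fold change was -3.23 and the call was lost (limma adjusted p = 0.0930), and without 5xFAD 3 it was -3.48 with the call lost as well (limma adjusted p = 0.0718).

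Srsf4, also known as SRp75 and one of the larger classical SR proteins, was at 915, 382 and 1249.9 in WT and at 165, 69.3 and 46.4 in 5xFAD. The groups did not overlap, and the lowest WT library was still above the highest 5xFAD library. The means were 849 ± 438 and 93.6 ± 62.9 (SD, n = 3 each), with a log2 fold change of -3.21 (SE 1.05, 95% interval -5.26 to -1.16; limma adjusted p = 0.0357). Srsf4 lies on chromosome 4 (131873617 to 131901706), 1.48 megabases from Snrnp40. An antisense gene, Gm12992, shares 1532 bases of exon with it on the other strand, and its reads cannot be told from those of Srsf4 without strand. The Srsf4 call was lost with edgeR (adjusted p = 0.0516) and without WT 1, WT 3, 5xFAD 2 or 5xFAD 3 (limma adjusted p = 0.142, 0.186, 0.0860 and 0.168). Without WT 3, and without 5xFAD 3, the log2 fold changes were -2.85 and -2.81.

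**Figure D1:**
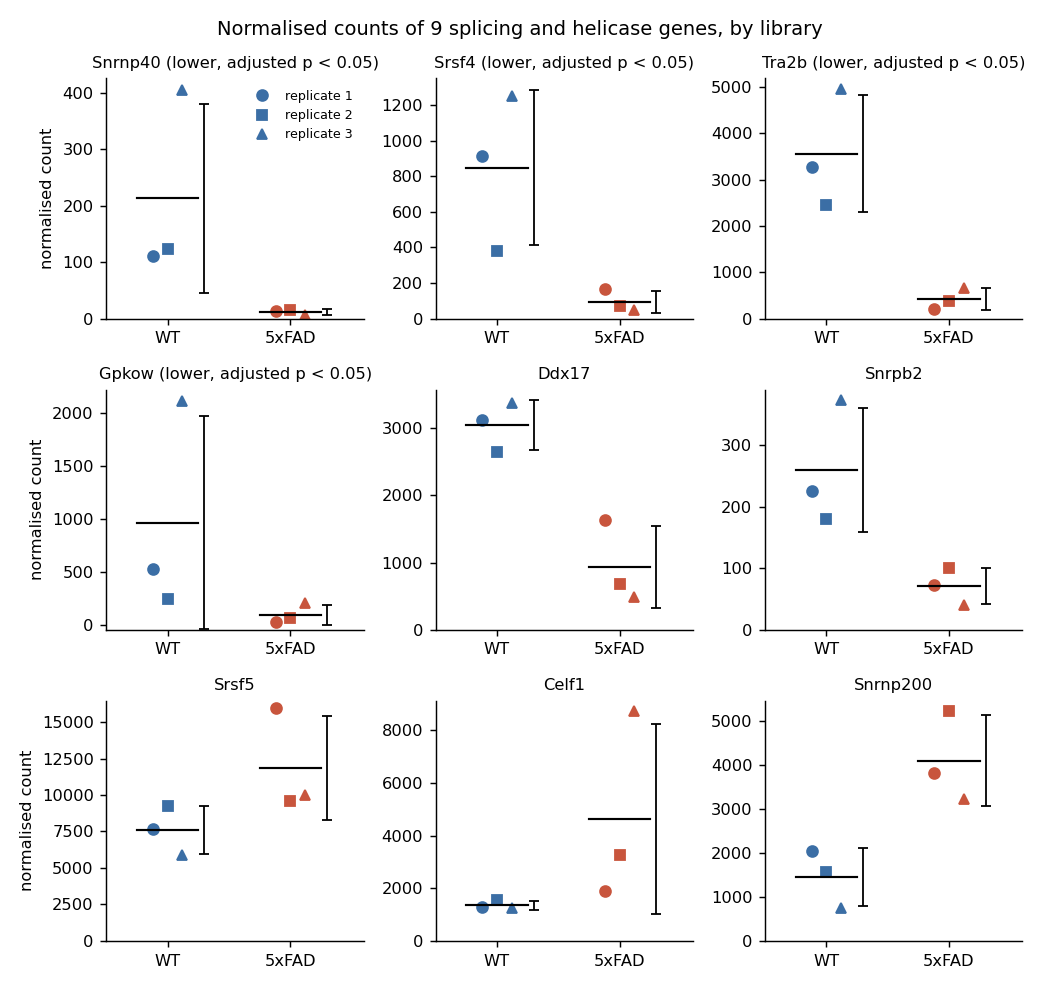
Normalised counts (y axis, linear) in the 3 WT and 3 5xFAD libraries for 9 genes whose groups do not overlap; symbols give the replicate number, horizontal lines the group means and vertical bars the SD. Snrnp40, Srsf4, Tra2b and Gpkow, lower at an adjusted p under 0.05, have every 5xFAD value below every WT value, while Srsf5, Celf1 and Snrnp200 have every 5xFAD value above every WT value without passing the test.

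From lists of other genes of RNA processing, 70 further genes were tested, and 2 were lower and 0 higher (limma adjusted p under 0.05). The 2 are 2.86% of the 70, against 4.48% lower of all tested genes, and the 0 higher stand against 1.88%. At an unadjusted p under 0.05, 5 were lower and 3 higher, against 9.61% and 6.7% of all tested genes, so none of these shares is above the background. DESeq2 called 1 higher, Cwc22, a spliceosome factor that helps load the exon junction complex (adjusted p = 0.0111; 218 ± 124 in WT and 1423 ± 945 in 5xFAD, SD, n = 3), and edgeR and voom called 0. Cwc22 has 7 genes with near-identical transcript sequence, sharing up to 71.9% of its longest transcript, so its reads may be divided among copies. The 2 lower genes were Tra2b, an SR-like splicing activator, and Gpkow, a spliceosome protein with G-patch and KOW domains. Tra2b was at 3283, 2461 and 4948 in WT and at 198, 381 and 667 in 5xFAD, which places every WT library far above every 5xFAD library. Its log2 fold change was -3.21 (SE 0.92; limma adjusted p = 0.0114), from means of 3564 ± 1267 to 415 ± 236 (SD, n = 3). Gpkow was at 530.1, 246 and 2114 in WT and at 23.2, 60.8 and 202 in 5xFAD, so that the lowest WT and highest 5xFAD libraries were close to each other. Its log2 fold change was -3.28 (SE 1.05; limma adjusted p = 0.0315). The Tra2b call was lost without WT 1, WT 3 or 5xFAD 1 (limma adjusted p = 0.0578, 0.0952 and 0.0769), and the Gpkow call without WT 1, WT 3, 5xFAD 1 or 5xFAD 2 (0.0761, 0.327, 0.240 and 0.0721). Gpkow was at -2.43 without WT 3, at -2.54 without 5xFAD 1, at -3.98 without WT 2 and at -4.08 without 5xFAD 3.

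The 250 bases before the most upstream RefSeq start site are shown for Srsf4, Tra2b and Gpkow because each was called lower; they were picked for that call. Snrnp40 is not shown. The sequences are RefSeq's, 5′ to 3′ on the gene's strand (GRCm38.p6), and capitals mark matches, on either strand, to the GC box GGGCGG or the ETS core CCGGAAG.
Srsf4, chr4:131873387-131873636, plus strand: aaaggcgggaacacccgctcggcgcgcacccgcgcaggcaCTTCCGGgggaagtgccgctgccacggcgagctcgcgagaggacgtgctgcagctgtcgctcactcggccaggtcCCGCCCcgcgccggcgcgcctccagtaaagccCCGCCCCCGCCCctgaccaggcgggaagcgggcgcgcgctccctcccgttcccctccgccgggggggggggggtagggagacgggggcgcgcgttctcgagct
Tra2b, chr16:22266006-22266255, minus strand: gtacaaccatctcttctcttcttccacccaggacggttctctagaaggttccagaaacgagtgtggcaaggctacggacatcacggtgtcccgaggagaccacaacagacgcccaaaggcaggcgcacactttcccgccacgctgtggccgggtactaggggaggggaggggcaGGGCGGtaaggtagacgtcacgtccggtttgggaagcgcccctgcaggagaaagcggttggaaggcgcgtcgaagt
Gpkow, chrX:7696884-7697133, plus strand: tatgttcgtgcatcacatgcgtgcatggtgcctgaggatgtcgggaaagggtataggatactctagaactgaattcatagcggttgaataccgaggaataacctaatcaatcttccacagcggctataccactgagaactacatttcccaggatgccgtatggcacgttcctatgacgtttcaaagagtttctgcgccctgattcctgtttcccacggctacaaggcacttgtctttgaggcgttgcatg

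These 3 windows differ from each other. Srsf4 has 3 GC boxes and 1 ETS core in a window of 77.2% G and C, Tra2b has 1 GC box at 60.8%, and Gpkow has none of the 6 motifs searched at 48.0%. Besides the GC box and the ETS core these were the CCAAT box (CCAAT), the TATA box (TATAAA), the E-box (CACGTG) and the cAMP response element (TGACGTCA), each on both strands, and no motif contains another. Of the 63 genes, 56 had a window in the RefSeq table. The ETS core was in 26.8% of the 56 and in 7.07% of all 27025 windows, the GC box in 60.7% and 33%, the CCAAT box in 44.6% and 34.5%, and the TATA box in 7.14% and 13%. The E-box was in 7.14% and 6.04%, and the cAMP response element in 1.79% and 1.6%. Of the 4233 listed genes only 2942 had a window, so a check against them leaves out the others. In those windows the ETS core was in 11.5%, the GC box in 58.7%, the CCAAT box in 33.9% and the TATA box in 6.83%. The windows of the 56 genes held a median of 19 CpG dinucleotides, against 6 in all windows and 16 in those of the listed genes. Their median of G and C was 58.8%, against 52.0% and 60.8%, and the part of base composition in the motif shares was not tested. A match describes the letters and is not evidence of binding.

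In the U1 snRNP and at the 5′ splice site, 0 of 5 genes passed. Snrnp70, the U1-70K protein that contacts the U1 RNA, was at 2294, 493 and 2888 in WT and at 73.8, 247 and 1374 in 5xFAD. In this gene 5xFAD 1 and 5xFAD 2 lay below all WT libraries while 5xFAD 3 lay inside their range. Its log2 fold change was -2.33 (95% interval -4.26 to -0.41; limma adjusted p = 0.158), and it passed only without 5xFAD 3 (-3.45, limma adjusted p = 0.0423). Snrpc, the U1-C protein, was low throughout, at 170.1, 231 and 30.1 in WT and 289, 139.8 and 53.1 in 5xFAD. The LUC7-like proteins, which bind U1 and tune the choice of 5′ splice site, overlapped between the genotypes. Luc7l3 was at 4723, 4063 and 5515 in WT and 5451, 4265 and 3193 in 5xFAD, a log2 fold change of -0.17 (95% interval -1.52 to 1.18), and Luc7l2 had 0.19 (-1.07 to 1.44). The sign of the Luc7l2, Luc7l3 and Snrpc values is not stable across settings.

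At the branch site 0 of 5 genes passed. Snrpb2, the U2-B″ protein of the U2 snRNP, was at 226, 180.4 and 374 in WT and at 72.2, 101 and 41.1 in 5xFAD. The groups did not overlap, and the log2 fold change was -1.87 (95% interval -3.96 to 0.21; limma adjusted p = 0.389). Sf3b1, the SF3B subunit that grips the branch site, spread widely inside both genotypes, at 3343, 4367 and 950.1 in WT and 6686, 1718 and 758 in 5xFAD. Its log2 fold change of -0.22 (limma adjusted p = 0.945) changed sign in 5 of 22 alternative settings. Sf3b2, its partner, was at -0.76, Rbm17, also known as SPF45, at -1.57 and the helicase Ddx42 at 1.09, none past the test.

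In the tri-snRNP and catalytic spliceosome, 1 of 10 genes passed, Snrnp40, against 6.36% of all tested genes. The other U5 proteins measured were not called lower. The helicase Snrnp200, known as Brr2, which unwinds U4 from U6, was at 2051, 1572 and 748 in WT and at 3822, 5241 and 3228 in 5xFAD. All 5xFAD values of Snrnp200 were above all WT values, with a log2 fold change of 1.58 (95% interval -0.01 to 3.17; limma adjusted p = 0.311). Prpf8, the large U5 protein at the catalytic centre, was at 3813, 2300.5 and 5018 in WT and at 3835, 2541 and 6549 in 5xFAD, a log2 fold change of 0.18 (-1.24 to 1.59). Eftud2, a U5 protein among the other RNA processing genes, was at 0.88 (95% interval -1.16 to 2.92). The interval of Snrnp40 does not overlap those of Snrnp200, Prpf8 and Eftud2. It does overlap that of Ddx23, the helicase that helps the tri-snRNP engage, which was at -1.49 (95% interval -3.46 to 0.48). A difference between genes of 1 complex was not tested. Dhx16, a helicase of the step before the first cut, was at -0.06. Among the LSM proteins of the U6 ring, Lsm8, which marks the nuclear ring, was at 353, 64.2 and 149 in WT and 154, 601 and 1093 in 5xFAD (log2 fold change 1.63, limma adjusted p = 0.471). Lsm6, which is in both the nuclear and cytoplasmic rings, was at 399, 949 and 334 in WT and 234, 249 and 314 in 5xFAD, just without overlap (-0.93, limma adjusted p = 0.759). Prpf19, Prpf38b and Prpf4b had log2 fold changes of 0.27, -0.40 and -0.33.

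**Figure D2:**
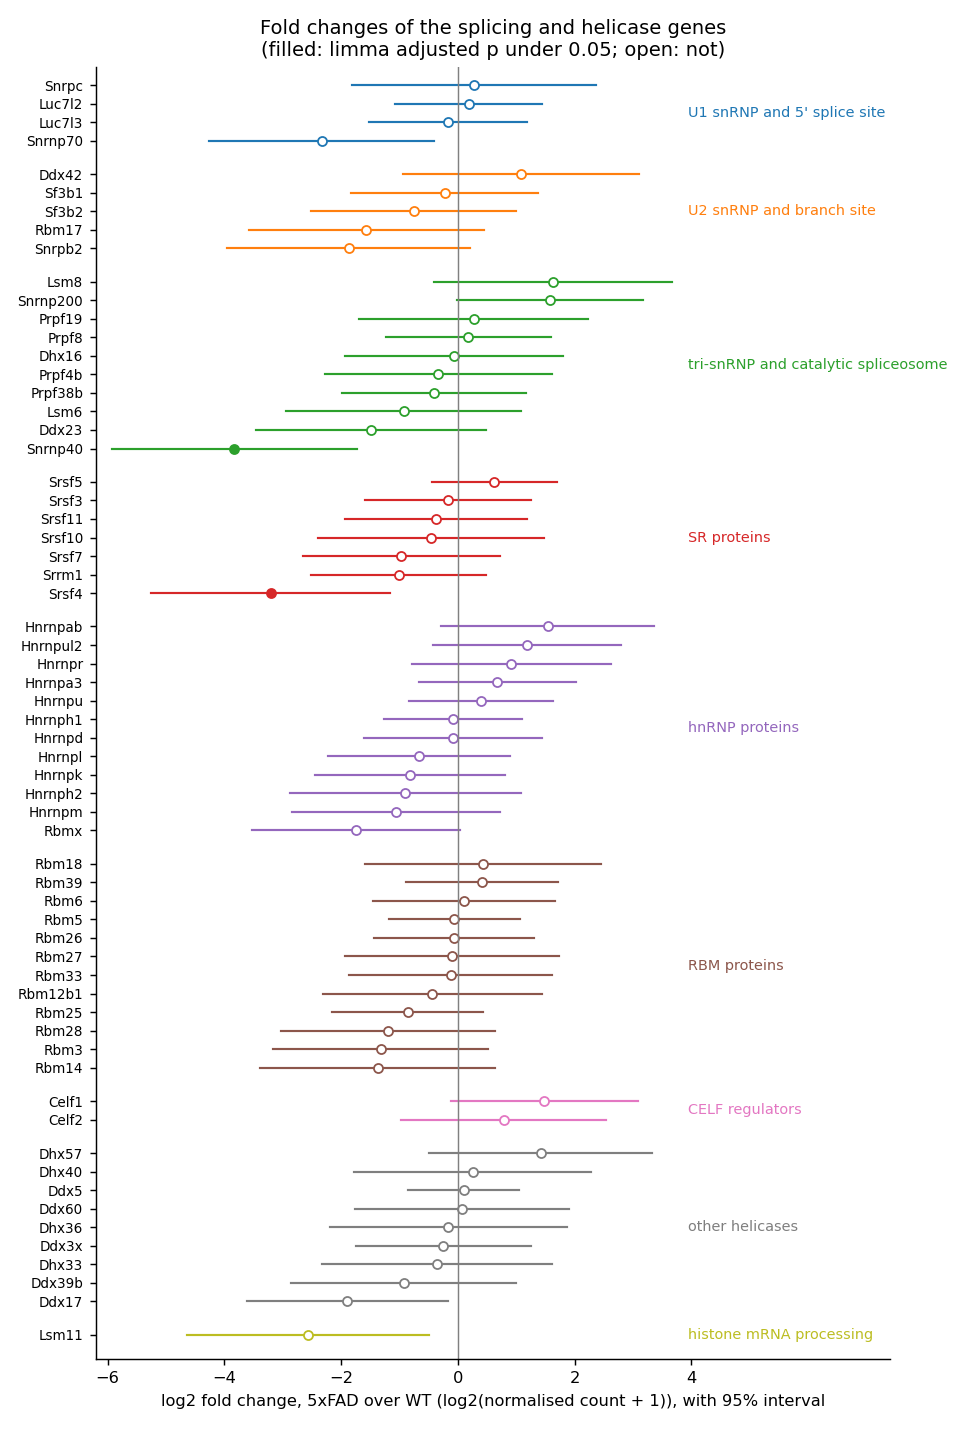
Log2 fold change, 5xFAD over WT, of 62 of the 63 genes (points) with its 95% interval (lines) from the limma fit, in blocks by role. The 2 filled points, Snrnp40 and Srsf4, passed the test, and the median of the 63 values is -0.17.

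Of 7 SR and SR-related genes, 1 was lower, Srsf4, and 6 had a negative and 1 a positive log2 fold change (median -0.46). Over all tested genes 4.48% were lower and 50.7% negative, with a median of -0.02. The groups by role are small, and nothing particular to a group is read from such counts, here or below. Srsf5, the highest of them, was at 7689, 9222 and 5888 in WT and at 15959, 9610.5 and 10017 in 5xFAD. Every 5xFAD library was above every WT library, by a small margin between WT 2 and 5xFAD 2, and the log2 fold change was 0.63 (95% interval -0.45 to 1.70; limma adjusted p = 0.658). Srsf3, the smallest classical SR protein and a factor in mRNA export, was at 6238, 3620.0 and 2565 in WT and 5898, 3248 and 2143 in 5xFAD, with overlapping ranges. Srsf7, which also takes part in export, was at -0.97, Srrm1, a coactivator that bridges SR proteins, at -1.01, Srsf10 at -0.46 and Srsf11 at -0.37. In Srsf7, Srsf10 and Srsf11 the WT 2 library was well below WT 1 and WT 3, so the range inside WT is itself wide (975 to 4552, 366 to 1096 and 1023 to 5054).

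Of 12 hnRNP genes, counting Rbmx (hnRNP G) with them, 0 passed, and 7 were negative and 5 positive (median -0.08). Hnrnpab was at 261, 406 and 2318 in WT and 875, 2923 and 2391 in 5xFAD (log2 fold change 1.54, limma adjusted p = 0.430), with WT 3 inside the 5xFAD range. Reads of its exons can be shared with Phykpl on the other strand. Rbmx was at 1884, 2970.0 and 2315 in WT and 201, 783 and 2155 in 5xFAD, where again 5xFAD 3 was in the WT range (-1.75, limma adjusted p = 0.319). The abundant Hnrnph1, which binds runs of G, was at 5592, 8293 and 7942 and at 9287, 9685 and 3488 (-0.08, SE 0.60), with a sign that changed in 5 of 23 settings. Hnrnpu, a nuclear scaffold protein, was at 4872, 4729 and 6700.0 and at 7755, 5796 and 7767 (0.39, -0.84 to 1.62). Hnrnpd, or AUF1, which binds AU-rich mRNA ends, ran from 906 to 10282 within 5xFAD alone. Of the others, Hnrnpul2, Hnrnpr and Hnrnpa3 were at 1.18, 0.92 and 0.68, and Hnrnpm, Hnrnph2, Hnrnpk and Hnrnpl at -1.06, -0.90, -0.82 and -0.66. Hnrnpa3 has 21 genes with near-identical transcript sequence, so its reads may be divided among copies.

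Of 12 further RBM genes, 0 passed, with 9 negative and 3 positive log2 fold changes (median -0.11). Rbm5, a regulator of apoptosis-related exons, was at 13752, 5180.3 and 8192 in WT and 5860, 6832 and 12844 in 5xFAD, fully overlapping (-0.06, 95% interval -1.18 to 1.06). Rbm25, a U1-associated factor, was at 5861, 9426 and 6108 and at 3572, 7347 and 2164 (-0.86, limma adjusted p = 0.596). Rbm39, a U2AF-related coactivator, was at 4598 ± 1756 and 5935 ± 1419.5 (SD, n = 3), and Rbm3, a cold-inducible RNA-binding protein, at 1637 ± 544 and 749 ± 563. The lowest log2 fold changes were -1.37 for Rbm14, a paraspeckle protein, and -1.32 for Rbm3, and the highest was 0.43 for Rbm18. Rbm28, Rbm12b1, Rbm33, Rbm27, Rbm26 and Rbm6 were at -1.20, -0.44, -0.12, -0.10, -0.06 and 0.10. Rbm12b1 has near-identical sequence to Rbm12b2 over 94.1% of its longest transcript, so its reads may be divided between them. The summed reads of the 12 genes were 0.354 to 0.418% of recovered reads in WT and 0.260 to 0.335% in 5xFAD. These ranges do not overlap. Of the 9 role groups, which were made with the values known, 6 had overlapping ranges, among them the SR proteins (0.196 to 0.358% in WT and 0.140 to 0.283% in 5xFAD), the hnRNPs (0.363 to 0.385% and 0.355 to 0.394%) and the U1 group (0.0940 to 0.160% and 0.0970 to 0.121%). The 3 without overlap were the RBM and CELF groups and Lsm11 alone, and no test is given for a sum over chosen genes.

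Both CELF genes, regulators of alternative splicing and mRNA decay, had positive log2 fold changes, and 0 of 2 passed. Celf1 was at 1284, 1558 and 1248 in WT and at 1910.1, 3256 and 8744 in 5xFAD. WT was tight and 5xFAD wide, without overlap (1.48, 95% interval -0.12 to 3.08; limma adjusted p = 0.361). Celf2 was at 683, 1232 and 1468 and at 5470.0, 1764 and 653, so 5xFAD 3, the highest for Celf1, was the lowest for Celf2 (0.78, limma adjusted p = 0.766). Their summed share was 0.0211 to 0.0292% of recovered reads in WT and 0.0519 to 0.0826% in 5xFAD.

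Of 9 other helicases, 0 passed. Ddx17 and Ddx5 are close paralogs that act in splicing, transcription and microRNA processing. Ddx17 was at 3129, 2647 and 3377 in WT and at 1631, 682 and 489.6 in 5xFAD. The WT values were tight and the 5xFAD values wide (SD of log2(reads + 1) 0.24 and 1.25), and the highest 5xFAD value lay below all WT values. The limma test, which takes the spread typical of genes at that level, did not call Ddx17 (-1.89, 95% interval -3.61 to -0.18, limma adjusted p = 0.226). Neither did edgeR, DESeq2 or voom (adjusted p = 0.295, 0.116 and 0.192). The sign held in all 23 settings, at -1.52 to -2.39. Ddx5 was at 14774, 14673 and 9310.5 in WT and at 18367, 12020.0 and 11190.0 in 5xFAD (0.10, 95% interval -0.86 to 1.05), a sign that changed in 4 of 23 settings. Near-identical sequence to Gm12183 covers 51.5% of the longest Ddx5 transcript, so Ddx5 reads may be divided between them. The difference between the paralogs was not tested. Ddx3x, a helicase of translation initiation on the X chromosome, was at -0.25, Ddx39b, or UAP56, which acts in both spliceosome assembly and mRNA export, at -0.93 and Ddx60, an interferon-induced antiviral factor, at 0.07. Ddx60 was high in 1 library of each genotype, at 3570.3 in WT 3 and 4541 in 5xFAD 3, against 390.3 to 658 in the other libraries. Dhx36, which opens G-quadruplexes, was at -0.16, and Dhx33, Dhx40 and Dhx57 were at -0.36, 0.25 and 1.42. Dhx57 was carried by 5xFAD 3, at 3504 against 271 to 964 elsewhere.

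Lsm11 belongs to the U7 snRNP, which trims histone mRNAs, and was the lowest gene of the set. It was at 14.0, 45.6 and 95.5 in WT and at 15.8, 7.29 and 1.33 in 5xFAD (-2.57, 95% interval -4.64 to -0.50; limma adjusted p = 0.142). WT 1 lay below 5xFAD 1, and the 5xFAD values rest on 19, 6 and 1 reads.

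**Figure D3:**
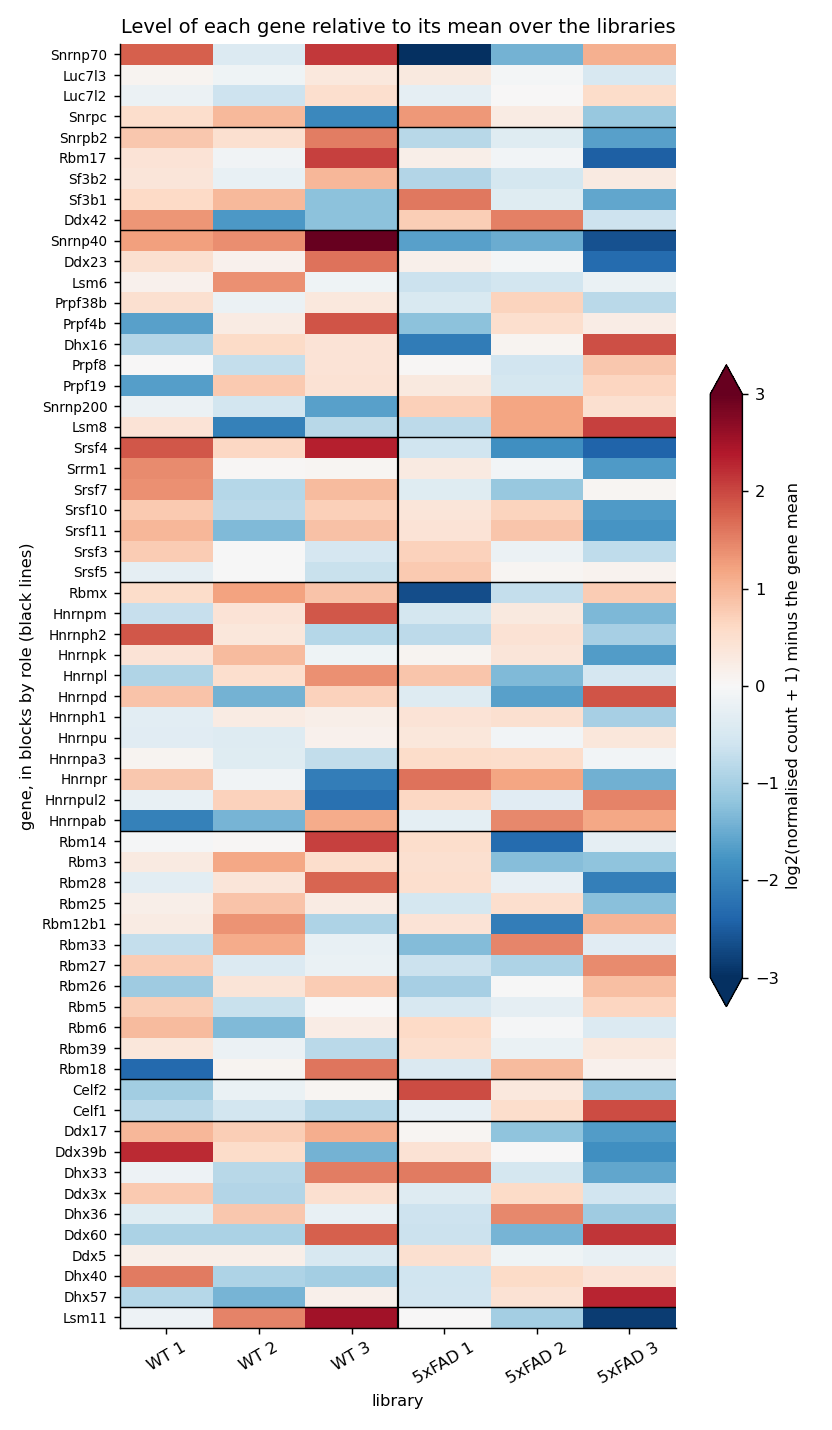
Log2(normalised count + 1) of 62 of the 63 genes (rows, in blocks by role) in each library (columns) minus that gene's mean over the 6 libraries; red is above and blue below the mean. The 5xFAD 3 column is the lowest of the 6 for 24 of the 63 genes.

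Groups did not overlap for 5 genes lower in 5xFAD (Snrnp40, Srsf4, Ddx17, Snrpb2 and Lsm6) and for 3 higher (Srsf5, Celf1 and Snrnp200). These are 7.94% and 4.76% of the 63, against 10.1% and 7.97% of all tested genes (18.1% either way), so both shares are below the background. The log2 fold changes were negative for 40 of the 63, or 63.5%, against 50.7% of all tested genes, with a median of -0.17 against -0.02. Leaving out any 1 of the 6 libraries lowered the negative share, to 54.0% without 5xFAD 3, 55.6% without 5xFAD 1, 57.1% without WT 1 or 5xFAD 2 and 60.3% without WT 2 or WT 3. The median moved both ways, to -0.10 without 5xFAD 3, -0.14 without WT 3 and -0.16 without 5xFAD 2, and to -0.26 without WT 1, -0.28 without 5xFAD 1 and -0.34 without WT 2. 5xFAD 3 held the lowest value of the 6 for 24 of the 63 genes, or 38.1%, against 20.4% of all tested genes. It was also the library with the most listed genes without reads, 147. The summed reads of the 63 genes made up 1.80, 1.48 and 1.56% of recovered reads in WT and 1.52, 1.54 and 1.41% in 5xFAD, overlapping ranges. Scaled to the same total, the median of all tested genes moved to -0.14 and that of the 63 to -0.29.

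**Figure D4:**
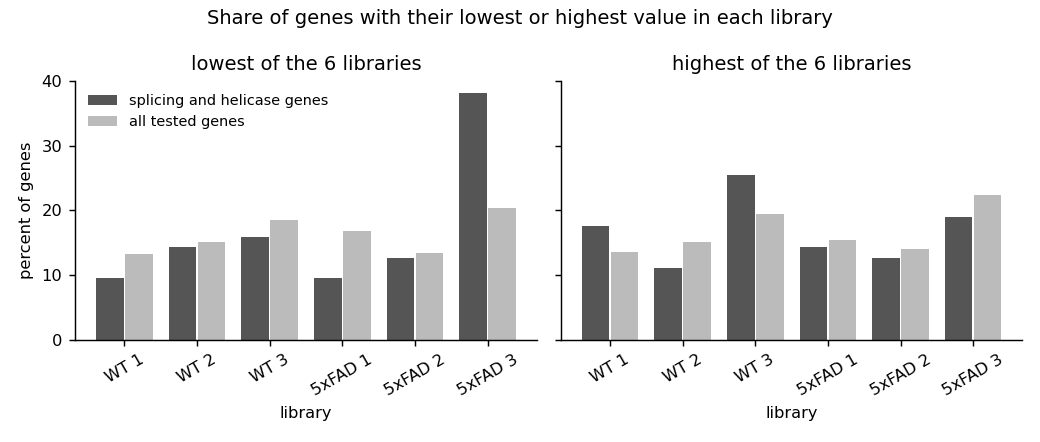
Percent of the 63 genes (dark bars) and of all 4152 tested genes (light bars) whose lowest value (left) or highest value (right) of the 6 libraries was in each library. 5xFAD 3 holds the lowest value for 38.1% of the 63 genes and 20.4% of all tested genes.

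Levels were compared between genes per kilobase of annotated exon, as means over the 6 libraries. That length joins every annotated exon of a gene, whichever transcripts were present. The effect of this, and of the RNA amplification, on the ranking was not tested. Srsf5 (2440.1 normalised counts per kb), Ddx5 (2318) and Hnrnph1 (1263) stood highest, followed in this pooled mean by Hnrnpa3 (886) and Rbm39 (758). In WT alone Srsf7 (840.1 ± 514.9) and Ddx3x (695 ± 347) had higher means than Hnrnpa3 (685 ± 191) and Rbm39 (662 ± 253; SD, n = 3), by less than their spread. On that scale Srsf5 was at 1906 ± 419 in WT and 2974 ± 891 in 5xFAD, and Ddx5 at 2237 ± 541 and 2399.8 ± 679.8 (SD, n = 3), so these neighbours do not differ beyond their spread. The lowest levels per kb were those of Lsm11 (4.63), Snrpc (23.3), Snrnp40 (28.2) and Dhx36 (37.3). On this scale the U5 protein Snrnp40 was at 53.3 ± 41.8 per kb in WT and 3.05 ± 1.22 in 5xFAD. Snrnp200 was at 186 ± 84.3 and 524 ± 132, and Prpf8 at 497 ± 183 and 577 ± 274. Srsf4 was at 238 ± 123 per kb in WT and 26.3 ± 17.7 in 5xFAD.

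**Figure D5:**
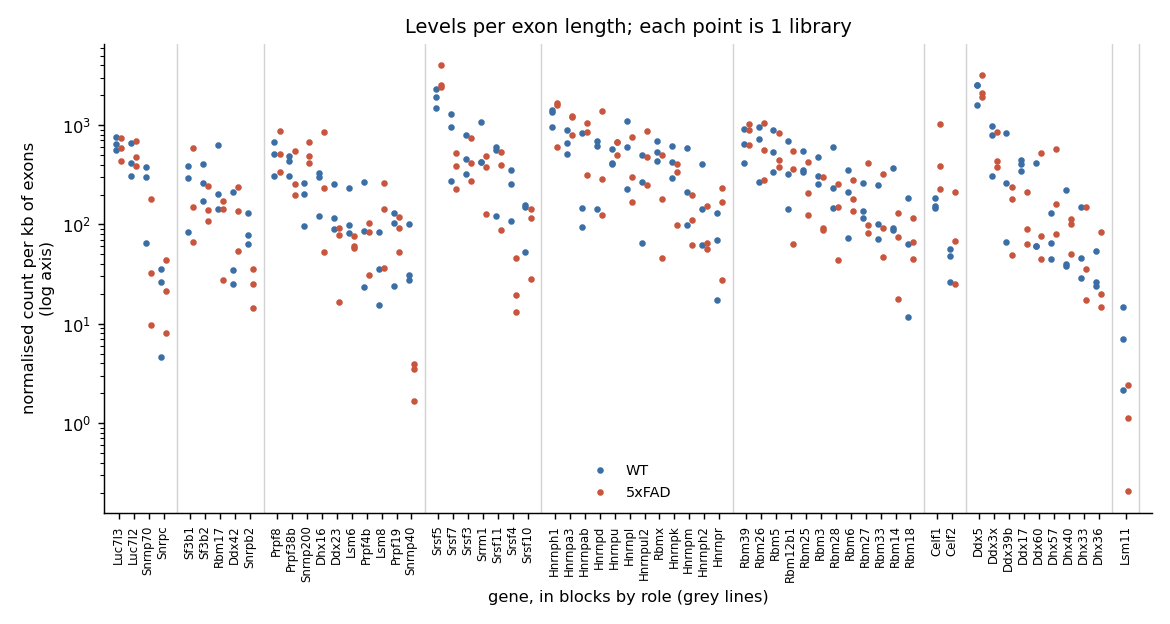
Normalised count per kb of annotated exon (y axis, log scale) of 62 of the 63 genes, in blocks by role; each point is 1 library, blue for WT and red for 5xFAD. Srsf5 and Ddx5 stand highest and Lsm11 lowest, and the blue and red points of Snrnp40 and Srsf4 are apart.

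The other RNA processing genes were then taken list by list, beside 4.48% lower, 50.7% negative and a median of -0.02 over all tested genes; the lists are short, and nothing particular to a list is read from its count. Of 12 other spliceosome components, 1 was lower (Gpkow) and 9 had negative log2 fold changes (median -1.03), and of 32 other splicing regulators and SR kinases, 1 was lower (Tra2b) and 16 were negative (median -0.01). In the exon junction complex and nonsense-mediated decay 0 of 7 passed (median 0.40), in mRNA export 0 of 6 (0.70), among other cleavage and polyadenylation factors 0 of 7 (0.78) and among other RNA helicases 0 of 7 (0.40; 1 of these, Aqr, is also a spliceosome component). All 70 together had a median of 0.10 with 32 negative, against -0.17 for the 63 genes chosen by name.

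The table limits these counts. No listed gene reaches an SD of 2 in log2(reads + 1) among the 3 libraries of a genotype, a limit that no source used here states and that can make too many calls between genotypes. Of the 63 genes, 48 stay under it whichever 3 of the 6 libraries are taken, and Snrnp40, Srsf4 and Snrnp70 are among the others. Sets of 3 that mix the genotypes also spread widely where a gene differs strongly between them, so this choice drops such genes. When limma was fitted to the genes that stay, it called 0 of the 48 (3 had an unadjusted p under 0.05). That 0 therefore cannot show whether the calls depend on the limit. The median SE of a log2 fold change among the 63 genes was 0.91, and at that SE differences much smaller than the 2 called were not detectable here. The SE ran from 0.49 (Ddx5) to 1.07 (Snrnp40), so the smallest detectable difference varied between genes.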

How the data were processed

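Sorted cells gave RNA by the PicoPure kit, which was linearly amplified, per the labels' protocols. The submitters' processing notes list FastQC, Trimmomatic, Salmon, DESeq2 and mm10, with no version. The deposited values are a normalized signal: the authors' gene counts divided by 1 factor per library. All values (100%) were whole multiples of the smallest value above 0 in their column, within 1e-06, so whole reads were recovered. Genes with a mean of at least 10 (4152 of 4233) were tested on log2(value + 1) with limma 3.58.1 in R 4.3.3, the prior variance following mean level. The prior degrees of freedom were infinite, so each SE reflects genes of similar level, not the gene's own spread. Fold changes on this scale understate those of low genes; folds given as such are ratios of mean normalised counts. Tests were two-sided, with p-values adjusted over all tested genes. edgeR 4.0.16, DESeq2 1.42.0, voom, other scalings, filters and priors, the replicate number as a block and each library left out were alternatives.

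Members and lists were chosen with earlier results of these data known, and the role groups with the values known. Same-numbered libraries were not treated as pairs. The naming rule took every called member, the 2 most abundant members per family, the 4 largest uncalled changes in each direction, called genes of the pathway lists, and Malat1 and 5 lymphatic markers; other members are named to account for the 63. The values of 1 member and of the neural marker list are not reported here, and 62 members are plotted; the member is in all counts. Positions and exon lengths are from GENCODE M21 (GRCm38, the assembly of mm10). Near-identical means at least 95% identity (BLAST 2.17.0) over at least 20% of the longest transcript, in another gene, which 12 of the 63 had; 17 had an exon overlap on the other strand. Promoter windows are RefSeq's (GRCm38.p6). The limma step was tested on simulated data.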

Additional observations from a re-analysis of the deposited data

How the results depend on the processing

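Over all tested genes 78 were higher and 186 lower. Testing only genes with a mean of 50 or more gave 49 and 116. The equal spread limit keeps genes with an SD under 2 in log2(reads + 1) whichever 3 of the 6 libraries are taken. It gave 1 and 0 among 2824 genes, but it also drops genes that differ strongly between the genotypes. The higher genes numbered 134 when the adjusted p could reach 0.1, 120 after quantile normalization and 163 with DESeq2; for the last 2 settings the cause was not tested. The 2 lower genes of the 63 became 1 at the mean of 50 or with edgeR (Snrnp40 in both; for edgeR the cause was not tested) and 0 under the equal spread limit, and the 2 lower of the 70 other RNA processing genes became 0 there. DESeq2 called 1 of the 70 higher. Leaving out single libraries gave 56 to 84 higher and 145 to 192 lower over all genes, 0 to 0 higher and 0 to 2 lower of the 63, and 0 to 0 higher and 0 to 2 lower of the 70. Without WT 3 none of the 63 was called, and without 5xFAD 3 Snrnp70 was called and Snrnp40 and Srsf4 were not. With the replicate number as a block there were 80 higher and 190 lower genes, and 2 lower of the 63 and 2 of the 70, with Snrnp40 at an adjusted p of 0.0077 and Srsf4 at 0.0315 by limma. The deviations of libraries that share a number had correlations of 0.00247, -0.0157 and -0.0126, and none of the 6 was closest to its own number. The values thus show no pairing by number, but they cannot show whether libraries of 1 number were handled together. Of the 63 log2 fold changes, 37 kept their sign in every setting that included the gene, 23 negative and 14 positive, and 26 did not.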
